A study of Drosophila melanogaster with 30 samples.

Results

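The target of rapamycin (TOR) kinase and 9 of its partners, regulators and targets were followed in whole *Drosophila* larvae. The 10 genes were chosen by name, as the kinase with its partners and regulators, and with earlier results of these data known: *mTor* (FBgn0021796), *raptor* (FBgn0029840), *rictor* (FBgn0031006), *Lst8* (FBgn0264691), *Rheb* (FBgn0041191), *Tsc1* (FBgn0026317), *gig* (FBgn0005198), *RagA-B* (FBgn0037647), *RagC-D* (FBgn0033272) and *S6k* (FBgn0015806). All 10 were found among the 17713 features counted, and all 10 passed the filter on low counts that left 12178 genes in the fit of all libraries. RNA was sequenced from 6 groups of late third-instar larvae, with 5 replicates a group and 5 whole larvae pooled in each replicate. The groups were *TOR-RNAi* refed, *TOR-RNAi* low, *HR3-RNAi* refed, *HR3-RNAi* low, control refed and control low. Every group, controls included, carried the ubiquitous driver *Tub-GAL80TS; Tub-GAL4*, in which GAL80 holds GAL4 inactive at 18 °C. RNAi was induced at 29 °C, and the controls carried the driver without an RNAi transgene. All larvae spent a first period on food poor in cholesterol, at 1.2 µg/mL. Refed larvae then received 80 µg/mL cholesterol for 10 h, and low larvae got fresh food at 1.2 µg/mL. The labels put the shift to 29 °C at 111 h and the start of the first period at 120 h, with a length of 10 h. The study's methods give later times for both steps, so the age of the larvae is not settled here. The design asked what cholesterol refeeding does in the animal and which of its effects need HR3 or TOR.

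TOR is a protein kinase that works in a pair of complexes sharing Lst8. Complex 1 is built around Raptor and drives protein synthesis and growth when nutrients are present, and complex 2 is built around Rictor and acts on Akt. Rheb, a small GTPase, activates complex 1 at the lysosome, the Tsc1-Tsc2 complex (Tsc2 is encoded by *gig*) switches Rheb off, and the Rag GTPases bring complex 1 to the lysosome when amino acids are available. S6k is a kinase that complex 1 phosphorylates. This control acts largely on the proteins, and the libraries measured RNA alone.

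In the BDGP6.54 annotation, *mTor* lies on the plus strand of chromosome arm 2L (13004480 to 13013197), *Rheb* on the plus strand of 3R (5568921 to 5570491) and *Tsc1* on the plus strand of 3R (24130307 to 24134654). *gig* lies on the plus strand of 3L (20129181 to 20139010), *S6k* on the minus strand of 3L (5797549 to 5810931), *RagA-B* on the minus strand of 3R (8982732 to 8984315) and *RagC-D* on the minus strand of 2R (8161679 to 8163500). *raptor* (6082634 to 6090201), *rictor* (19252111 to 19261240) and *Lst8* (9604154 to 9605969) are all on the minus strand of X. *raptor* shares 1669 exonic bases, 23.5% of its exonic length, with *Mipp2* on the same strand, so the count of *raptor* depends on how reads in that stretch were assigned. *Lst8* shares 127 bases (7.22%) with *Gga* and *RagA-B* shares 62 bases (4.4%) with *CAHbeta*, both on the opposite strand.

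Libraries held between 19744564 and 33510753 counts, and the 10 genes took between 351 and 3229 counts each in a library, far above the 3 counts used as the floor of detection. Of 30 marker genes for fat body, muscle, neurons, midgut, salivary gland, haemocytes, testis and male dosage compensation, 20 were at or above 3 counts in every library. The 5 salivary gland markers are *Sgs* genes. Their sum had a median of 297 CPM in *TOR-RNAi* refed larvae (0.224 to 828), against 5.84 CPM in control refed larvae (1.01 to 661). Low-diet medians were 0.61 CPM in *TOR-RNAi* (0 to 669) and 1.48 CPM in control larvae (0.514 to 16.8). For *HR3-RNAi* larvae they were 104 CPM refed (3.82 to 216) and 21.6 CPM low (0 to 2010). These differences were not tested. Control refed replicate 2 and *TOR-RNAi* low replicate 1 stood apart, with at most 1 count in each of the 4 testis markers (*loopin-1*, *S-Lap1*, *fest* and *betaTub85D*), which summed to 0.0671 and 0.058 CPM in these libraries and to at least 40.5 CPM in each of the other 28. Their summed *roX1* and *roX2*, which are made in males and belong to the dosage-compensation machinery of their X chromosome, was 10.3 and 3.83 CPM, against at least 33.4 CPM in the other 28 libraries. Several results are given with and without these 2 libraries, an alternative chosen after the data were seen. CPM here is the count scaled by the library size after edgeR's TMM normalization. The labels do not say whether the replicates came from separate cultures, so p-values measure the spread between these pools. In whole larvae, fewer cells of a type and less RNA per cell cannot be told apart.

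In the 10 control libraries, the genes spanned a 12.4-fold range of FPKM, a level per transcript length that lets genes be compared. *Rheb* was highest at 37.7 ± 2.36 FPKM (SD, n = 10), above *RagC-D* at 27.2 ± 1.75, *RagA-B* at 21.2 ± 1.33 and *S6k* at 19.1 ± 1.58. *Lst8* (11.1 ± 0.956 FPKM), *Tsc1* (8.91 ± 0.536) and *gig* (7.64 ± 0.565) were intermediate. *mTor* itself averaged 6.31 ± 0.335 FPKM, above the 2 genes that define its complexes, *raptor* at 3.17 ± 0.36 and *rictor* at 3.04 ± 0.177. The small GTPases thus had the highest transcript levels of the set, and the kinase and the scaffolds of its complexes the lowest. Each gene was above the next one in 10 of 10 libraries (exact sign-flip test, two-sided, p = 0.00195, adjusted p = 0.00251 over 9 pairs), except for 2 pairs. *RagA-B* exceeded *S6k* in 9 of 10 libraries (log2 difference 0.16, exact p = 0.00586, adjusted p = 0.00659). *raptor* exceeded *rictor* in 6 of 10 (log2 difference 0.06, exact p = 0.363), and these levels did not differ beyond their spread. The order held in all 4 groups of control and *HR3-RNAi* larvae. In *TOR-RNAi* low larvae *S6k* stood level with *RagA-B* (both 21.1 FPKM), and in *TOR-RNAi* refed larvae *rictor* (3.48 FPKM) stood above *raptor* (3.35 FPKM).

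**Figure D1:**
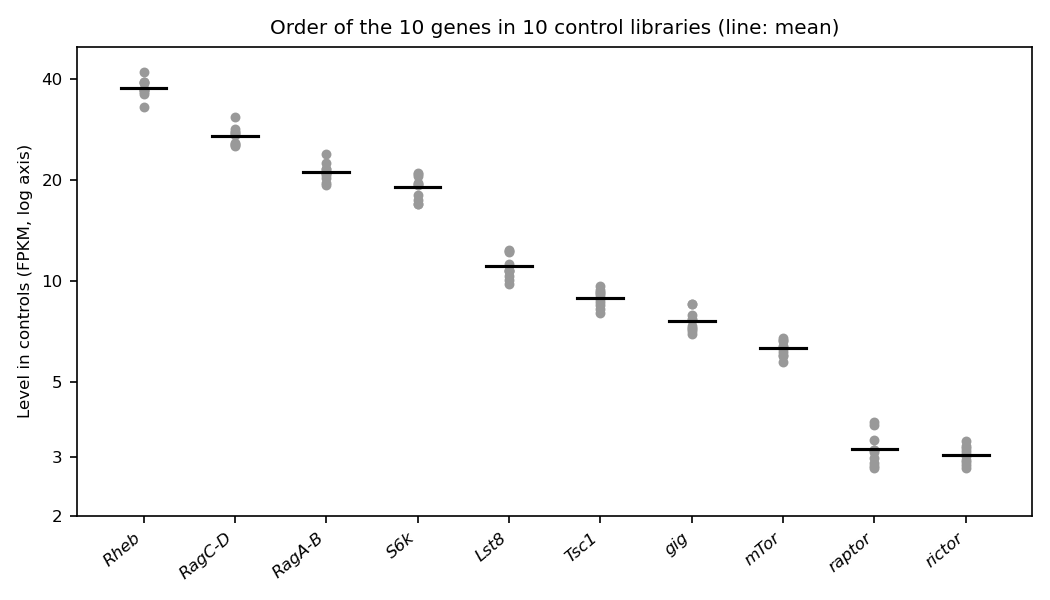
FPKM of each of the 10 genes in the 10 control libraries (points, refed and low together) with the mean of the 10 as a line, on a log axis, ordered by mean. *Rheb* is highest at 37.7 FPKM and *raptor* and *rictor* overlap at the bottom, with means of 3.17 and 3.04 FPKM.

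*mTor*, the RNAi target, was lower in *TOR-RNAi* larvae on both diets. Its level was 29, 25.5, 32.6, 33.1 and 28.7 CPM in *TOR-RNAi* refed larvae, against 51.3, 51.6, 54.8, 45.2 and 55.6 CPM in control refed larvae. On the low diet it was 29.4, 24.7, 43.3, 41.6 and 37.8 CPM in *TOR-RNAi* larvae, against 48, 49, 51.8, 55.4 and 47.7 CPM in controls. No *TOR-RNAi* library reached the lowest control library of its diet, and replicates 1 and 2 of the *TOR-RNAi* low group were the lowest of that group. *mTor* fell by 0.79 on the log2 scale on refed food (SE 0.105, quasi-likelihood test of edgeR, Benjamini-Hochberg adjusted p = 1.15e-05) and by 0.51 on low food (SE 0.104, adjusted p = 0.00283). In these terms 57.6% of the control mean remained in *TOR-RNAi* refed larvae, with single libraries between 49.3% and 64%, and 70.2% remained in *TOR-RNAi* low larvae, with libraries between 49% and 85.9%. Without the 2 libraries that lacked testis markers, *mTor* fell by 0.45 on low food (adjusted p = 0.0148). The difference between the diets in the size of this fall was not past the threshold (interaction -0.27, adjusted p = 0.614). Counts are per gene, so any reads from the RNAi hairpin cannot be told apart from those of the endogenous transcript. *mTor* did not separate *HR3-RNAi* from control larvae. It averaged 48.2 ± 2.7 CPM in *HR3-RNAi* refed against 51.7 ± 4.09 CPM in control refed larvae, and 50.8 ± 2.42 CPM in *HR3-RNAi* low against 50.4 ± 3.21 CPM in control low larvae (SD, n = 5 each).

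**Figure D2:**
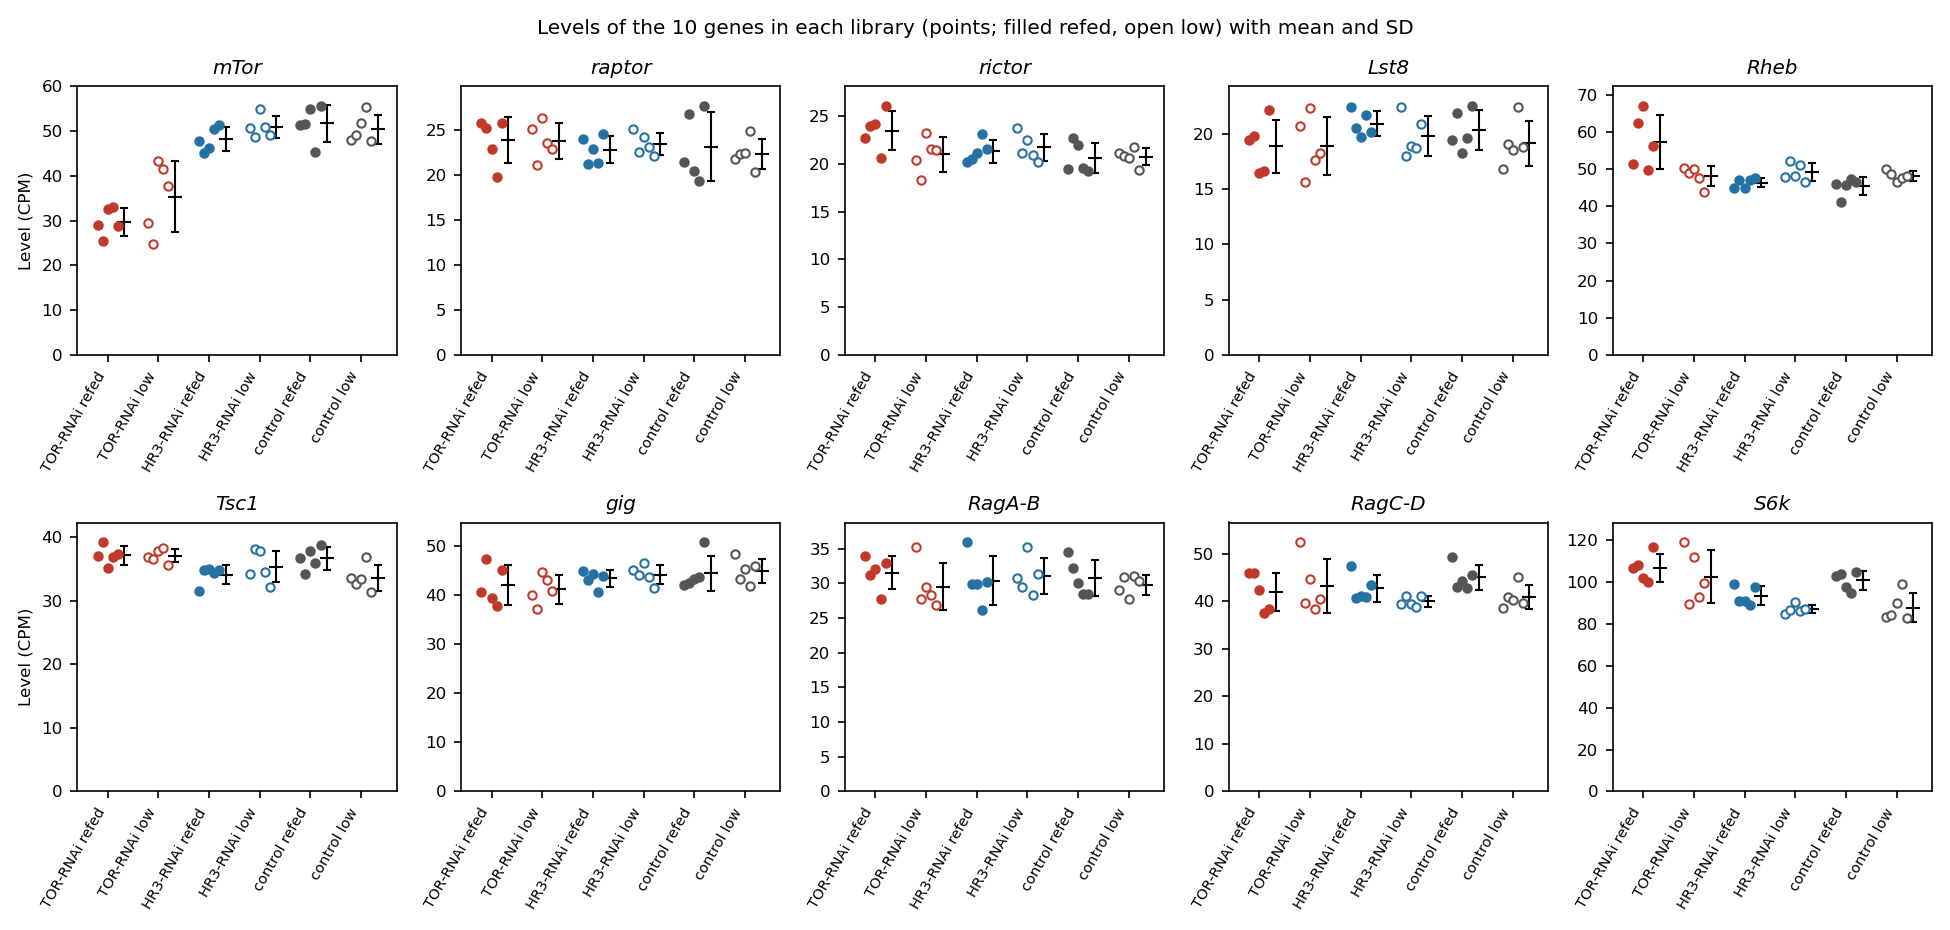
Level of each of the 10 genes in CPM (y axis, from 0) in every library of the 6 groups (x axis), with points filled for refed and open for low, and the mean and SD beside them. *mTor* is between 24.7 and 43.3 CPM in *TOR-RNAi* larvae, below every control library, and *Rheb* reaches 67 CPM in *TOR-RNAi* refed larvae.

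Of the 10 genes, 3 differed between *TOR-RNAi* refed and control refed larvae (*mTor*, *Rheb* and *rictor*), where 17.7% of all genes tested were called. On low food *mTor* alone was called, where 3.71% of all genes were. Over both diets 3 were called (*mTor*, *Rheb* and *S6k*), against 20.9% of all genes. The median of the 10 log2 fold changes was 0.04 on refed food, against 0.06 over all genes tested.

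*Rheb*, the activator of complex 1, was the one gene of the set besides *mTor* whose *TOR-RNAi* refed and control refed libraries did not overlap. Its level was 51.4, 62.4, 67, 49.8 and 56.1 CPM in *TOR-RNAi* refed larvae, against 46, 41.2, 45.6, 47.4 and 46.6 CPM in control refed larvae. The lowest *TOR-RNAi* refed library (49.8 CPM) was thus above the highest control refed library (47.4 CPM), a separation seen for 9.33% of all genes in that comparison. In the same order, the summed *Sgs* markers were 242, 297, 828, 0.224 and 347 CPM in *TOR-RNAi* refed larvae. In control refed larvae they were 2.72, 5.84, 661, 7.38 and 1.01 CPM. Whether *Rheb* or other genes called on refed food follow these markers was not tested. *Rheb* rose 1.27-fold (log2 fold change 0.35, SE 0.0607, 95% interval 0.22 to 0.47, adjusted p = 0.000274), and the rise stayed past the threshold in each of 39 alternative fits (adjusted p between 1.3e-05 and 0.00386). On low food *Rheb* was 50.4, 48.9, 50, 47.7 and 43.9 CPM in *TOR-RNAi* larvae, against 50.1, 48.6, 46.6, 47.5 and 48.2 CPM in controls, and the groups overlapped. Over both diets *Rheb* rose by 0.17 (SE 0.0429, adjusted p = 0.00539), and by 0.14 without the 2 libraries that lacked testis markers (adjusted p = 0.0228). The rise on refed food was 0.31 without them (adjusted p = 0.00144). *Rheb* averaged 57.3 ± 7.28 CPM in *TOR-RNAi* refed larvae and 48.2 ± 2.6 CPM in *TOR-RNAi* low larvae (log2 fold change 0.25, SE 0.0906, adjusted p = 0.447). In controls the corresponding levels were 45.3 ± 2.44 CPM refed and 48.2 ± 1.32 CPM low (log2 fold change -0.09, adjusted p = 0.463). The difference between these diet responses was 0.35 on the log2 scale (SE 0.0857, unadjusted p = 0.000314) and was not past the threshold after adjustment over all genes (adjusted p = 0.166). This interaction was past it under DESeq2 (0.34, adjusted p = 0.0322) and without *TOR-RNAi* refed replicate 4 (0.38, adjusted p = 0.0347), 2 of 37 alternatives, over which the adjusted p ranged up to 0.525.

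The Tsc genes, whose proteins form the brake on Rheb, were not called by edgeR in any comparison. *Tsc1* was 36.9, 36.6, 37.9, 38.3 and 35.7 CPM in *TOR-RNAi* low larvae, against 33.6, 32.7, 33.5, 36.9 and 31.4 CPM in control low larvae. A single control library (36.9 CPM) lay within the range of the *TOR-RNAi* libraries, and the difference of 0.14 on the log2 scale missed the threshold (adjusted p = 0.133). On refed food *Tsc1* averaged 37.1 ± 1.43 CPM in *TOR-RNAi* larvae and 36.7 ± 1.76 CPM in controls. *gig* ran slightly the other way, with 41.2 ± 2.93 CPM in *TOR-RNAi* low and 45 ± 2.47 CPM in control low larvae (log2 fold change -0.13, adjusted p = 0.317). The *gig* to *Tsc1* ratio of FPKM was accordingly -0.42 on the log2 scale in *TOR-RNAi* low and -0.15 in control low larvae (exact permutation test, two-sided, p = 0.0238, adjusted p = 0.222 over 28 ratio comparisons). Over both diets neither gene was called, with *Tsc1* at 0.08 (adjusted p = 0.0938) and *gig* at -0.1 (adjusted p = 0.11). *Tsc1* was called there with RLE scaling (0.1, adjusted p = 0.0395) and by DESeq2 (adjusted p = 0.031), and *gig* without *TOR-RNAi* refed replicate 2 (-0.13, adjusted p = 0.0411).

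Among the partners of the kinase, only *rictor* was called, and on refed food alone. It was 22.7, 24, 24.2, 20.6 and 26.1 CPM in *TOR-RNAi* refed larvae, against 19.5, 22.7, 22, 19.6 and 19.3 CPM in control refed larvae. The groups overlapped, and the rise of 0.2 on the log2 scale (SE 0.0683, adjusted p = 0.0438) was close to the threshold. It was past the threshold in 14 of 39 alternatives (adjusted p between 0.0141 and 0.182) and lost without the filter on low counts (adjusted p = 0.0725) and in a fit of *TOR-RNAi* and control larvae alone (adjusted p = 0.0739). Of the 30 fits that each left out 1 library, 22 lost it, with the highest adjusted p without *TOR-RNAi* refed replicate 5 (0.14, adjusted p = 0.182). Many of these 22 left out a library of a group not compared here, such as *HR3-RNAi* refed replicate 2 (0.18, adjusted p = 0.0694). Over both diets *rictor* was at 0.1 (adjusted p = 0.127). *raptor* averaged 23.9 ± 2.61 CPM in *TOR-RNAi* refed and 23.2 ± 3.77 CPM in control refed larvae, and 23.8 ± 2.01 CPM in *TOR-RNAi* low and 22.4 ± 1.65 CPM in control low larvae. *Lst8*, shared by both complexes, averaged 18.9 ± 2.4 CPM in *TOR-RNAi* refed and 20.3 ± 1.8 CPM in control refed larvae, and 18.9 ± 2.63 CPM in *TOR-RNAi* low and 19.1 ± 2.04 CPM in control low larvae. The 95% interval of the difference over both diets was -0.06 to 0.2 on the log2 scale for *raptor* and -0.2 to 0.08 for *Lst8*. With *mTor* lower and *Lst8* near its control level, the *Lst8* to *mTor* ratio of FPKM was 1.52 on the log2 scale in *TOR-RNAi* refed and 0.83 in control refed larvae, and 1.3 in *TOR-RNAi* low and 0.78 in control low larvae. Both differences (0.69 and 0.52) had the smallest p that 5 libraries against 5 can give (exact permutation test, p = 0.00794), and neither passed after adjustment over the 28 ratio comparisons (adjusted p = 0.111).

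No difference in the Rag GTPases between *TOR-RNAi* and control larvae exceeded the spread of the libraries. *RagA-B* averaged 31.6 ± 2.34 CPM in *TOR-RNAi* refed and 30.7 ± 2.59 CPM in control refed larvae, and 29.5 ± 3.33 CPM in *TOR-RNAi* low and 29.8 ± 1.43 CPM in control low larvae. *RagC-D* averaged 42 ± 3.97 CPM in *TOR-RNAi* refed and 45 ± 2.65 CPM in control refed larvae, and 43.1 ± 5.7 CPM in *TOR-RNAi* low and 40.9 ± 2.55 CPM in control low larvae. The 95% intervals over both diets were -0.1 to 0.13 for *RagA-B* and -0.11 to 0.09 for *RagC-D*, so a difference of more than 0.13 on the log2 scale lies outside both.

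*S6k*, the complex 1 target, was higher in *TOR-RNAi* than in control larvae over both diets, by 0.16 on the log2 scale (SE 0.0454, 95% interval 0.06 to 0.25, adjusted p = 0.015). It was 119, 89.5, 112, 93 and 99.8 CPM in *TOR-RNAi* low larvae, against 83.4, 84.2, 89.8, 98.9 and 82.7 CPM in control low larvae. On refed food it was 107, 108, 102, 100 and 117 CPM in *TOR-RNAi* larvae, against 103, 104, 97.6, 94.8 and 105 CPM in controls. The groups overlapped on both diets, and within a diet the difference missed the threshold (0.22, adjusted p = 0.055 on low food, and 0.09, adjusted p = 0.318 on refed food). On low food it was past the threshold in 10 of 39 alternatives, among them without control low replicate 4 (0.26, adjusted p = 0.025), *TOR-RNAi* low replicate 2 (0.27, 0.0154) or replicate 4 (0.26, 0.0294), and *TOR-RNAi* refed replicates 3, 4 or 5 (0.23 each, adjusted p between 0.0469 and 0.0495). The highest *TOR-RNAi* low library, replicate 1, is one of the 2 that lacked testis markers. Without these 2 libraries the difference was 0.13 over both diets (adjusted p = 0.039) and 0.16 on low food (adjusted p = 0.205). *S6k* was also higher in *TOR-RNAi* than in *HR3-RNAi* larvae over both diets (0.2, adjusted p = 0.00282), where *mTor* fell by 0.62 (adjusted p = 6.5e-07) and 10.6% of all genes were called. *Rheb* missed the threshold there (0.13, adjusted p = 0.0553), and it was past it in 17 of 30 fits with 1 library left out (adjusted p between 0.00501 and 0.104).

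**Figure D3:**
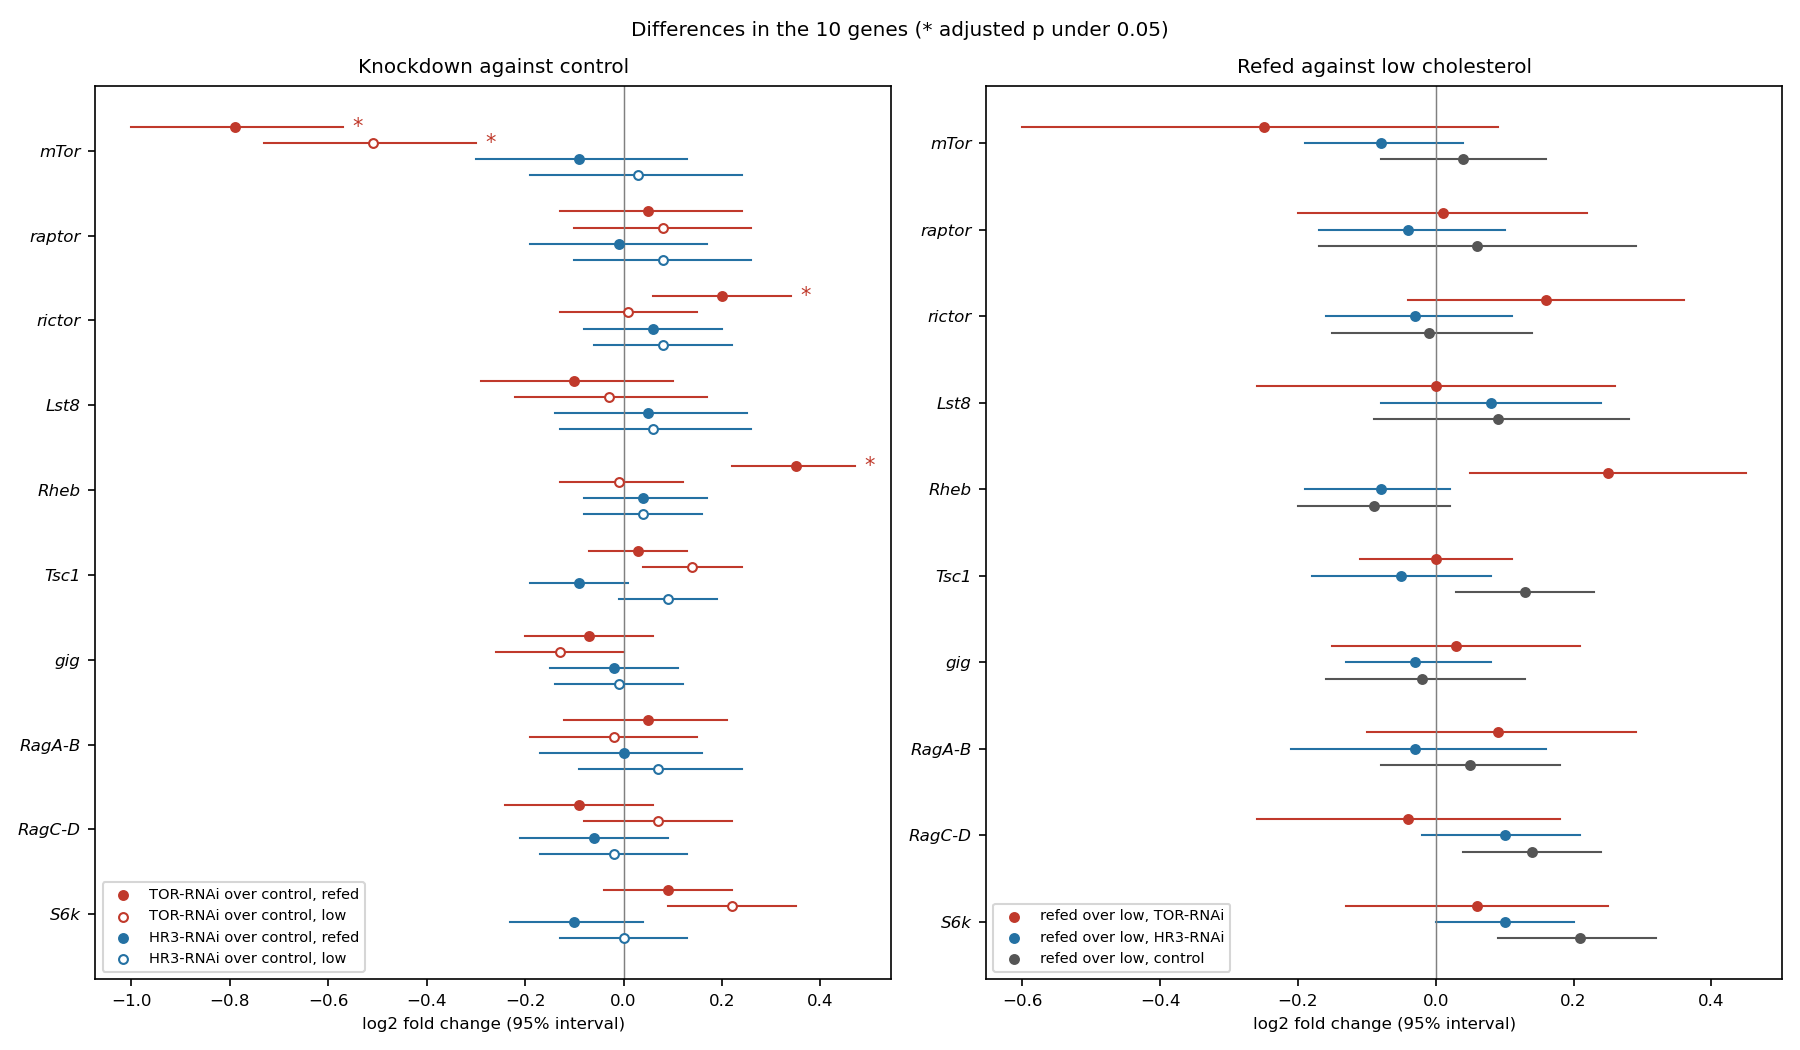
Log2 fold change of each of the 10 genes with its 95% interval (x axis), for *TOR-RNAi* and *HR3-RNAi* over control on each diet (left) and for refed over low cholesterol in each genotype (right), with a star where the adjusted p was under 0.05. The stars mark *mTor* on both diets, *Rheb* (0.35) and *rictor* (0.2) on refed food in *TOR-RNAi* larvae, and there are none for *HR3-RNAi* or for diet.

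Cholesterol refeeding called none of the 10 genes in any genotype by edgeR, where the share of all genes tested that it called was 0.562% in *TOR-RNAi* larvae, 3.44% in *HR3-RNAi* larvae and 3.83% in controls. At an unadjusted p under 0.05 the counts were 1 of 10 in *TOR-RNAi* larvae, 1 in *HR3-RNAi* larvae and 3 in controls, where the shares of all genes were 8.23%, 14.6% and 14.9%. DESeq2 called 1 gene in controls and 0 in either knockdown. The gene closest to the threshold in controls was *S6k*, which averaged 101 ± 4.52 CPM in refed and 87.8 ± 6.78 CPM in low larvae (log2 fold change 0.21, SE 0.0525, 95% interval 0.09 to 0.32, adjusted p = 0.0609). Of the 5 control low libraries only replicate 4 (98.9 CPM) lay within the refed range of 94.8 to 105 CPM, and without it the difference was 0.23 (adjusted p = 0.0261). Without the 2 libraries that lacked testis markers it was 0.18 (adjusted p = 0.179). DESeq2 called it (0.19, adjusted p = 0.0084). *RagC-D* was 49.4, 43.1, 44.2, 42.9 and 45.5 CPM in control refed larvae, against 38.6, 40.9, 40.3, 45.2 and 39.7 CPM in control low larvae, with replicate 4 again the highest of the low group (log2 fold change 0.14, adjusted p = 0.154). *Tsc1* showed a like difference in controls (0.13, adjusted p = 0.203). In *HR3-RNAi* larvae the largest difference was again in *S6k*, with 93.5 ± 4.47 CPM refed and 87.1 ± 2.08 CPM low (0.1, adjusted p = 0.324). In *TOR-RNAi* larvae the log2 differences ran between -0.25 for *mTor* (95% interval -0.6 to 0.09, adjusted p = 0.765) and 0.25 for *Rheb*. *Rheb* was called there only when the spread was taken from all 30 libraries (0.26, adjusted p = 0.0122).

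No difference between *HR3-RNAi* and control larvae was detected in the 10 genes. edgeR called none of them on low food, where 2.61% of all genes were called, on refed food (3.97%) or over both diets (7.53%). None had an unadjusted p under 0.05 in these comparisons, DESeq2 called none either, and the largest log2 difference over both diets was 0.07, with 95% intervals that all lay between -0.18 and 0.2. *Hr3*, the RNAi target of these larvae, had between 2 and 17 counts in a library, and its decrease was not detectable at this depth (log2 fold change over both diets -0.39, 95% interval -1 to 0.22, adjusted p = 0.495). The *TOR-RNAi* and *HR3-RNAi* comparisons share the same control libraries. The diet response of no gene among the 12178 tested differed between a knockdown and controls by edgeR, with 1111 genes at an unadjusted p under 0.05 for *TOR-RNAi* and 818 for *HR3-RNAi*. DESeq2 called 117 genes for *TOR-RNAi* and 37 for *HR3-RNAi*, and edgeR with the *roX* covariate called 20 for *TOR-RNAi* and 0 for *HR3-RNAi*. Among the 10, *Rheb* (above) for *TOR-RNAi* and *Tsc1* for *HR3-RNAi* (-0.18, unadjusted p = 0.0136, adjusted p = 0.646) were at an unadjusted p under 0.05, and DESeq2 called *Rheb* alone.

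The ratios between partner genes (*raptor* to *rictor*, *Lst8* to *mTor*, *gig* to *Tsc1* and *RagA-B* to *RagC-D*) gave no difference past the threshold in 28 comparisons, and 5 had an unadjusted exact p under 0.05. The smallest exact p of 5 libraries against 5 is 0.00794, and the 2 comparisons that reached it had an adjusted p of 0.111, so the design left little room for a call and the count says nothing of how alike the ratios were. Beside those given above, these were 2 diet comparisons in *TOR-RNAi* larvae, *RagA-B* to *RagC-D* with a difference of 0.13 (exact p = 0.0476, adjusted p = 0.267) and *raptor* to *rictor* with -0.16 (exact p = 0.0397, adjusted p = 0.267).

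After subtraction of each group's mean, some of the 10 genes deviated together over the 30 libraries. Of 45 pairs, 7 had a Pearson's r above 0.5, and the median r was 0.234, with a range of -0.166 to 0.739. The closest pairs were *Lst8* with *S6k* (0.739), *raptor* with *Lst8* (0.705), *raptor* with *S6k* (0.687), *RagC-D* with *S6k* (0.671) and *RagA-B* with *RagC-D* (0.661). *mTor* was in none of the 7 pairs. The genes whose deviations were most like those of *mTor* over the same libraries were *Teh4* (r = 0.762), FBgn0033342 (0.71), *CG13917* (0.704), *CG4360* (0.682) and *Ppn* (0.674), which encodes the extracellular matrix protein papilin. *Teh4* averaged only 1.04 CPM in controls, a level at which counting error is larger than for *mTor*. These values are descriptions over the 30 libraries, in each of which all genes come from the same pool of larvae and the same sequencing depth. No distribution of r over other gene pairs was taken as a background.

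Several of these genes also deviated with the *roX* level of the library. The share of all genes that did so was not computed, so the relation cannot be called particular to this set. Within groups, *S6k* was lower where *roX1* and *roX2* together were higher (n = 30, Pearson's r = -0.764, Spearman's rho = -0.726, permutation within groups, adjusted p = 3e-04 and 0.00125 over 10 relations, unadjusted p = 3e-05 and 0.00025). *RagA-B* (r = -0.652, rho = -0.695, permutation adjusted p = 0.0031 and 0.00125), *RagC-D* (-0.648, -0.594, permutation adjusted p = 0.0108 and 0.00842), *Lst8* (-0.58, -0.653, permutation adjusted p = 0.0108 and 0.0024) and *raptor* (-0.572, -0.639, permutation adjusted p = 0.00907 and 0.0024) did the same. Of these, *raptor* and *Lst8* are on X, and *S6k*, *RagA-B* and *RagC-D* are on autosomes. Leaving out *TOR-RNAi* low replicate 1 and control refed replicate 2, whose *roX* levels were farthest from the median, r was -0.721 for *S6k*, -0.524 for *RagA-B*, -0.599 for *RagC-D*, -0.635 for *Lst8* and -0.632 for *raptor*. No relation passed for *mTor* (r = 0.0287, rho = -0.0296), *Rheb* (-0.043, 0.095), *Tsc1* (0.0827, 0.0389), *gig* (-0.05, -0.0959) or *rictor* (-0.355, -0.411, permutation adjusted p = 0.246 and 0.0756). Without the same 2 libraries r was -0.345 for *mTor* and -0.537 for *rictor*, values that rest on the choice of libraries.

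**Figure D4:**
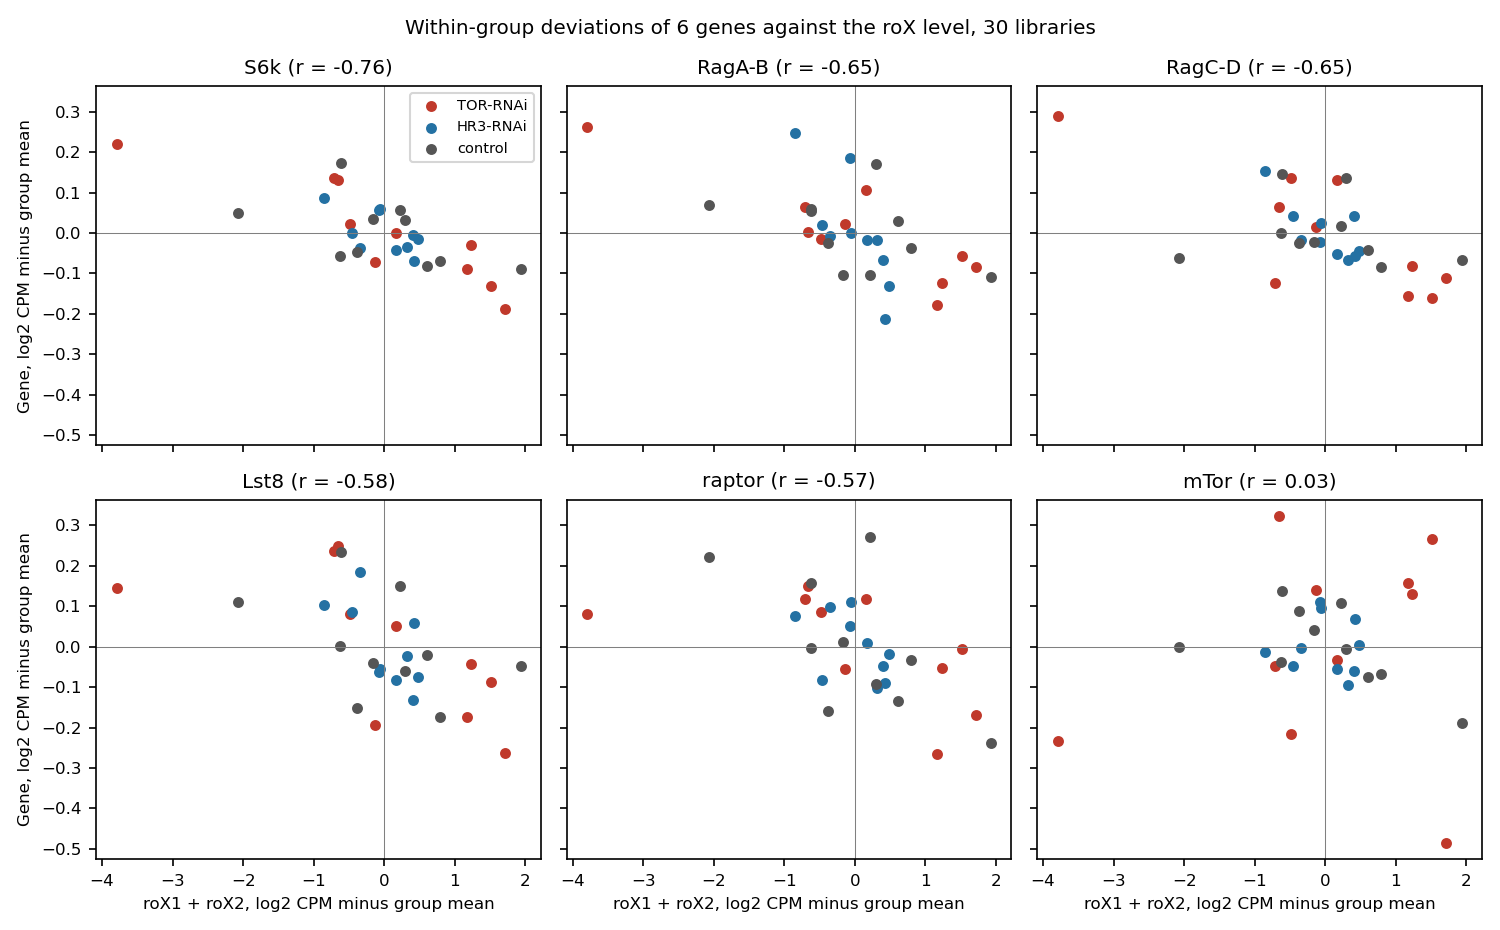
Deviation of 6 genes from their group mean (y axis, log2 CPM) against that of summed *roX1* and *roX2* (x axis, log2 CPM) in the 30 libraries, coloured by genotype, with Pearson's r in each title. *S6k* falls with *roX* (r = -0.764), and *mTor* does not (r = 0.0287). The points far to the left are the 2 libraries that lacked testis markers.

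The *roX* level overlapped between the groups compared, and its difference was not tested. Its median was 72 CPM in *TOR-RNAi* refed larvae (48.3 to 178), against 50.8 CPM in control refed larvae (10.3 to 166), and 124 CPM in *TOR-RNAi* low larvae (3.83 to 174), against 94.8 CPM in control low larvae (69.1 to 185). With the *roX* level as a covariate, *S6k* in *TOR-RNAi* over control larvae was 0.15 over both diets (adjusted p = 0.00215), 0.14 on refed food (adjusted p = 0.0373) and 0.15 on low food (adjusted p = 0.0736). The refed over low difference of *S6k* in controls was then 0.16 (adjusted p = 0.289). *Rheb* in *TOR-RNAi* refed over control refed larvae was 0.35 with this covariate (adjusted p = 0.000353), as without it.

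Other genes of the pathway were taken from 5 lists of 48 genes, of which 45 were matched and 44 tested. *Lamtor2* had 0 counts in every library, a value that allows up to 3 counts in each. Between *TOR-RNAi* refed and control refed larvae 10 of the 44 rose and 5 fell, or 34.1% against 17.7% of all genes. On low food 1 rose (2.27% against 3.71%), and over both diets 8 rose and 4 fell (27.3% against 20.9%). In *HR3-RNAi* larvae over both diets 2 rose and 1 fell (6.82% against 7.53%). With 1 library left out the counts called were 10 to 20 on refed food, 10 to 18 over both diets and 2 to 5 in *HR3-RNAi* larvae, the last with 5 without control low replicate 1. On low food the count was 0 without control low replicate 3 or *TOR-RNAi* low replicate 1 and 3 without *TOR-RNAi* low replicate 4. On refed food none of the 9 Ragulator and lysosomal genes tested was called, a list of *Lamtor* genes with *BHD*, *anchor*, *path*, *slif* and *Mitf*. Of the 10 GATOR, Sestrin and Samtor genes 2 rose and 2 fell, with a median log2 fold change of -0.08 against 0.06 over all genes. Of 8 insulin, PI3K and TORC2 genes 3 rose and 1 fell (median 0.13), and of 7 stress and energy genes 1 fell (median -0.04). Of 10 TOR targets and readouts 5 rose and 1 fell (median 0.26).

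*Iml1*, a subunit of the GATOR1 complex that inhibits the Rag GTPases, was at 48 ± 5.32 CPM in *TOR-RNAi* refed and 37.7 ± 1.75 CPM in control refed larvae (SD, n = 5 each) and was the 1 gene of the lists that also rose on low food. It rose in *HR3-RNAi* larvae too (0.34 over both diets, adjusted p = 3.8e-06, against 0.3 in *TOR-RNAi* larvae, adjusted p = 1.68e-05). *Wdr59*, of the opposing GATOR2 complex, rose by 0.35 over both diets (adjusted p = 0.000397), and *Sec13*, a GATOR2 subunit that also serves in vesicle coats and nuclear pores, fell by 0.21 (adjusted p = 0.00118). *chico*, the insulin receptor substrate, averaged 26.2 ± 2.34 CPM in *TOR-RNAi* refed and 21.6 ± 1.57 CPM in control refed larvae (0.21 over both diets, adjusted p = 0.00181), and *Pdk1*, a kinase that activates Akt and S6k, rose by 0.17 (adjusted p = 0.0186). *Tctp*, reported as a Rheb activator in flies, was at 738 ± 36.8 CPM in *TOR-RNAi* refed and 990 ± 57.5 CPM in control refed larvae. The groups did not overlap, a separation seen for 9.33% of all genes in that comparison. With low food *Tctp* averaged 817 ± 105 CPM in *TOR-RNAi* and 925 ± 110 CPM in control larvae, and the groups overlapped. Over both diets it fell by 0.3 (adjusted p = 0.000214).

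Of the 10 readouts 5 rose and 1 fell on refed food, and the 1 that fell is not named here. Among those named, *REPTOR-BP*, the partner of the transcription factor that TOR holds in the cytoplasm, had the largest difference. It was at 19.2 ± 5.97 CPM in *TOR-RNAi* refed larvae, with libraries between 9.62 and 23.7 CPM, and at 10.6 ± 2.44 CPM in control refed larvae. It rose by 0.86 on refed food and by 0.51 over both diets (adjusted p = 0.0117). Without the 2 libraries that lacked testis markers it rose by 0.41 over both diets (adjusted p = 0.0381). Its low-food level was 13.1 ± 3.95 CPM in *TOR-RNAi* and 11.7 ± 0.65 CPM in control larvae. *REPTOR* itself rose by 0.39 on refed food (adjusted p = 0.0168), as did *Thor*, the translation repressor 4E-BP (0.71, adjusted p = 0.0378). On low food *REPTOR* was at -0.14 (adjusted p = 0.644) and *Thor* at -0.14 (adjusted p = 0.892), so neither was called there. Both genes were named after their values were seen. *unk*, a zinc-finger gene that acts with TOR in fly neurons, was at 29.8 ± 7.22 CPM in *TOR-RNAi* refed and 21 ± 2.11 CPM in control refed larvae. The *TOR-RNAi* refed libraries ran between 19.5 and 39.8 CPM, and its rise over both diets (0.27, adjusted p = 0.02) was lost without *TOR-RNAi* refed replicate 5 (adjusted p = 0.0557). On low food *unk* averaged 22.9 CPM in *TOR-RNAi* and 22.6 CPM in control larvae (0.01, adjusted p = 0.975). *Atg1*, the kinase that starts autophagy, rose by 0.24 over both diets (adjusted p = 0.0118). Its low-food level was 32.6 ± 3.2 CPM in *TOR-RNAi* and 29.5 ± 1.28 CPM in control larvae. *scyl*, a REDD-family inhibitor of TOR, fell by 0.2 over both diets (adjusted p = 0.00587), and *SNF4Agamma*, an AMPK subunit, rose by 0.15 (adjusted p = 0.0381), a call that did not hold in 13 of 30 leave-one-out fits. The *SNF4Agamma* call was also lost without the 2 libraries that lacked testis markers (0.13, adjusted p = 0.108).

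**Figure D5:**
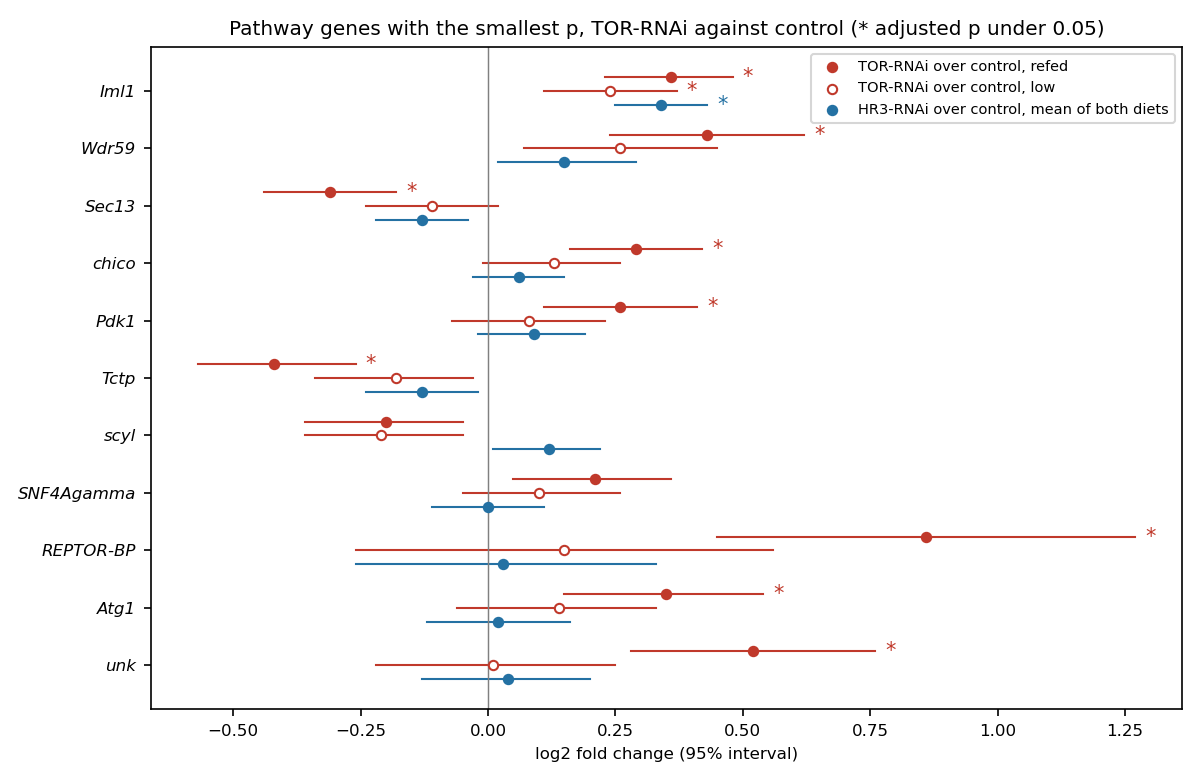
Log2 fold change with its 95% interval (x axis) for 11 genes of the pathway lists, chosen as at most 3 a list with the smallest p over both diets, in *TOR-RNAi* over control on refed and low food and in *HR3-RNAi* over control over both diets. A star marks an adjusted p under 0.05. *REPTOR-BP* is farthest right on refed food at 0.86, and *Iml1* alone is past the threshold in all 3 comparisons.

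Refeeding called 2 of the 44 list genes in controls (4.55%, against 3.83% of all genes), a share near the background. Leaving out single control libraries gave 1 to 3, with 1 in 7 of 10 such fits (without refed replicate 1, 2, 3 or 5 or low replicate 3, 4 or 5). *scyl* averaged 160 CPM in refed and 112 CPM in low larvae (0.52, adjusted p = 0.00261), and *Sesn*, the fly Sestrin, averaged 51.9 CPM in refed and 43.1 CPM in low larvae (0.27, adjusted p = 0.0284). In *TOR-RNAi* larvae *scyl* rose as well, with 138 CPM refed and 97.7 CPM low (0.5, adjusted p = 0.00559), and it was the only one of the 44 called there (2.27%, against 0.562% of all genes). In *HR3-RNAi* larvae none of the 44 was called by edgeR, against 3.44% of all genes, and *scyl* averaged 162 CPM refed and 128 CPM low (0.34, adjusted p = 0.0517). The diet response of *scyl* differed from that of controls by 0 in *TOR-RNAi* larvae (adjusted p = 0.997) and by -0.17 in *HR3-RNAi* larvae (adjusted p = 0.811).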

How the data were processed

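The authors deposited, for each of the 30 libraries, counts per gene (raw, from featureCounts) and FPKM. Their HISAT2, StringTie, featureCounts and edgeR versions, genome build and strand setting are not given in the sources used here. The deposited FPKM equal the counts divided by gene length and a scaled total to within 1.2e-07%, so they carry no separate information. Comparisons used edgeR 4.0.16 (TMM, filterByExpr with a minimum count of 10, quasi-likelihood test, Benjamini-Hochberg over all genes, R 4.3.3) with 3 fits of 1 genotype for diet and 1 fit of all libraries for genotypes and interactions; intervals are 95% and unadjusted. DESeq2 1.42.0, limma 3.58.1 on log2(FPKM + 0.1) and log2(FPKM + 1), RLE scaling, no filter, a replicate block, a *roX* covariate and leaving out each library were alternatives. For genotypes and interactions each of the 30 libraries was left out in turn, those of groups outside the comparison included. Such a fit keeps the libraries compared and can change only the scaling, the filter and the estimate of the spread. Ratios and neighbours in the order used exact tests. The fit was tested on simulated data. Members and lists were chosen with earlier results of these data known. Besides the 10 genes, the text names, per list, the 3 called genes of smallest p over both diets and the 5 most like *mTor*. *REPTOR*, *Thor*, *Sesn*, *Lamtor2* and *Hr3* were named after their values were seen. *S6k* is listed under an older identifier, matched through the study's gene table. *InR*, *PRAS40* and *Maf1* were not matched and not analysed here. Counting floors cover counting error only.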

Additional observations from a re-analysis of the deposited data

Results flagged for a closer look

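In 60 groups of 5 libraries (10 genes in 6 groups), 2 held a library far from the other 4, where chance alone marks about 1 in 20 groups. *Tsc1* in *HR3-RNAi* refed replicate 1 was at 31.5 CPM, with the others between 34.4 and 35 CPM, a gap of 0.818 of the group's range. *gig* in control refed replicate 5 was at 50.8 CPM, with the others between 42.1 and 43.8 CPM, a gap of 0.8. None of the 20 interaction tests of the 10 genes passed the threshold by edgeR.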

How the results depend on the processing

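No result changed direction where it was called. *mTor* and *Rheb* in *TOR-RNAi* over control larvae kept their calls in all 39 alternatives on refed food and over both diets, as did *mTor* on low food (adjusted p 0.000288 to 0.023) and *S6k* over both diets (0.000203 to 0.0473). Between *TOR-RNAi* low and control low larvae 1 of the 10 genes was called, against 2 under RLE scaling, 3 under DESeq2 and 2 under limma with either pseudocount. The added gene was *S6k* (adjusted p 0.00631 with RLE, 0.000652 with DESeq2), with *Tsc1* also called by DESeq2 (0.0308). DESeq2 called 1 gene for diet in controls (*S6k*), 4 between *TOR-RNAi* and *HR3-RNAi* larvae and 1 interaction for *TOR-RNAi* (*Rheb*). The fit of all 30 libraries called 1 gene for diet in *TOR-RNAi* larvae (*Rheb*). Leaving out 1 library gave between 1 and 2 called genes on low food, 2 and 3 on refed food, 3 and 4 over both diets, 2 and 4 against *HR3-RNAi*, 0 and 1 for diet in controls and 0 and 1 for the *TOR-RNAi* interaction. Over all genes, diet in *TOR-RNAi* larvae called 65 genes, against 339 in the fit of all 30 libraries, 265 by DESeq2, 108 with the *roX* covariate and 30 with the block. Diet in controls called 436, against 727 by DESeq2 and 209 with the block, and diet in *HR3-RNAi* larvae 400, against 706 by DESeq2. *TOR-RNAi* against control on low food called 452, against 682 by DESeq2. *HR3-RNAi* against control called 318 on low and 484 on refed food, against 500 and 793 by DESeq2 and 488 and 847 in a fit of the 2 genotypes. Replicate numbers were not taken as pairs, because no comparison had every same-numbered pair above a correlation of 0.1. *HR3-RNAi* refed and *HR3-RNAi* low had 4 of 5 pairs above it, so this limit cannot settle pairing in part of the design. A replicate block lost 1 call among the 10 genes, *rictor* on refed food (adjusted p = 0.0571). Precision limits the set: over both diets the SE of a log2 difference ran between 0.0344 and 0.074.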
